A study of Homo sapiens with 18 samples.

Results

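The comparison set H9 clone 9-D against H9 clone 9-1, 2 lines of human embryonic stem cells that the labels give as homozygous knockouts of ZNF263. It used 6 of the 18 libraries in the series, 3 of each clone, chosen by their clone labels, and the 3 libraries of unedited H9 served as the reference level. H9 (WA09) is an established line, and the edits were made with Cas9, so by their labels both clones are edited at ZNF263 and the wild-type libraries are not. No other allele, agent, dose or time is labelled for any of the 3 groups. Each clone is 1 line, so a difference between the 2 clones is a difference between single lines of the same labelled genotype. The labels name neither the edited part of ZNF263 nor any date or batch, and they do not say that replicates came from separate cultures, so p-values measure the spread between these libraries, which may be technical. The autosomal genes were asked which clone stood away from wild type and whether genes beside each other on a chromosome moved together.

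ZNF263 encodes a zinc finger transcription factor with a SCAN and a KRAB domain that binds DNA rich in runs of GGA. Clones grown up from single edited stem cells carry, beside the intended edit, whatever else set the founding cell apart, which can include copy-number change, DNA methylation, allele choice at clustered genes and chance differences in genes that are switched on or off. Comparing clones of the same labelled genotype shows how far such lines differ from each other. The labels do not say that the edits of the clones are alike.

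Libraries of the clones held 13548941 to 21007799 counts and those of wild type 14156770 to 15996191. Levels are counts scaled to library size (CPM), and a count of 0 allowed up to 3 counts, or 0.143 to 0.223 CPM. These limits cover counting error only. ZNF263 RNA stood at 37.4, 36.2 and 34.4 CPM in 9-1, 35.3, 35.3 and 37.8 CPM in 9-D, and 39.9, 44.4 and 42.7 CPM in wild type, so that both clones lay below wild type and overlapped each other. The log2 fold change of 9-D over 9-1 was 0.01 with a 95% interval of -0.14 to 0.16, so ZNF263 RNA did not separate the clones at this precision. Its protein was not measured here. The stem cell genes POU5F1, NANOG, SOX2, LIN28A and DNMT3B were abundant in all 9 libraries.

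The clones were close to each other. Of 15411 genes tested, 47 (0.305%) passed at an adjusted p of 0.05 (edgeR, quasi-likelihood F test), of which 36 lay on autosomes and 9 on the X chromosome (1.66% of 542 X genes). The 36 were 0.247% of the 14577 autosomal genes, 17 higher in 9-D (0.117%) and 19 lower in 9-D (0.13%). Only 8 of them (0.0549% of autosomal genes) differed at least 2-fold. In the same model 9-D differed from wild type at 3412 autosomal genes (23.4%) and 9-1 at 3848 (26.4%). Those last counts use the same wild-type libraries. At an unadjusted p under 0.05, 951 autosomal genes (6.52%) differed between the clones.

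The size of the typical difference was small as well. The median absolute log2 fold change was 0.0743 between the clones, against 0.146 for 9-D and 0.153 for 9-1 over wild type. For 92.9% of autosomal genes the 95% interval of the difference between the clones lay within 2-fold in either direction. It lay within 1.5-fold for 99.5% of the 9990 genes with a mean of at least 10 CPM in any group, wild type included. The root mean square difference of log2(CPM + 1) was 0.186 to 0.225 over the 9 pairs of a 9-1 and a 9-D library, 0.189 to 0.200 within 9-1 and 0.200 to 0.216 within 9-D. Pairs of a clone and a wild-type library ranged from 0.312 to 0.365. In this measure a library of one clone was about as far from the other clone as from its own replicates.

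**Figure D1:**
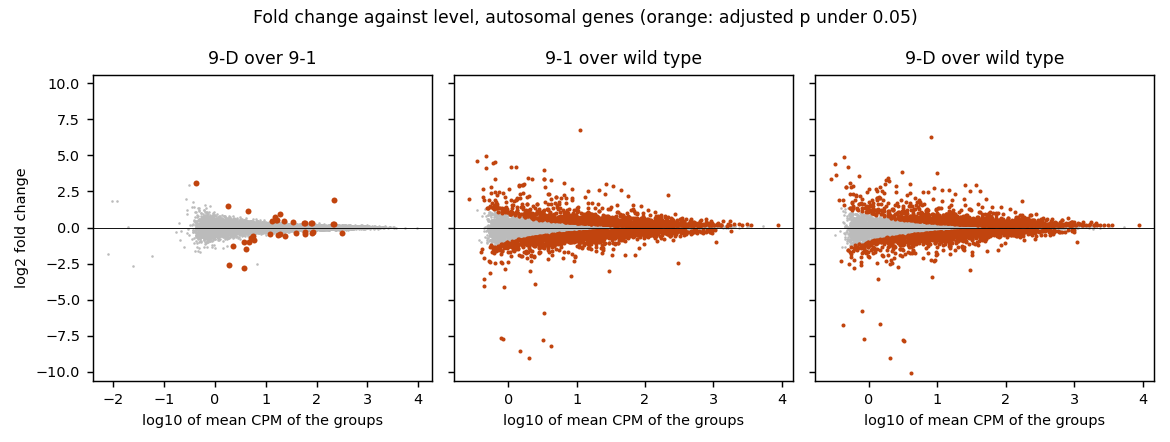
Log2 fold change (vertical axis) against the log10 of the mean CPM of the compared groups (horizontal axis) for autosomal genes, in the 3 comparisons on one vertical scale; each point is a gene, orange points passed an adjusted p of 0.05, and genes with no reads in both compared groups are left out. The 36 orange points between the clones stand beside 3848 for 9-1 and 3412 for 9-D against wild type.

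Among autosomal genes with a mean of at least 10 CPM, TERF1 on chromosome 8 differed most. TERF1 encodes TRF1, a subunit of the shelterin complex that binds the duplex repeats of telomeres, and its RNA is abundant in pluripotent cells. In 9-1 it stood at 94.4, 96.7 and 89.2 CPM, in 9-D at 363, 368 and 338 CPM, and in wild type at 498, 562 and 503 CPM. The 3 groups did not overlap, with 9-1 far below both others and 9-D between. The difference of the clones was 3.81-fold (log2 1.93, SE 0.0617, adjusted p = 2.03e-23). Clone 9-1 held 17.9% of the wild-type mean (log2 fold change -2.48) and 9-D 68.4% (-0.55, adjusted p = 1.91e-09). TERF1 kept its call in every alternative run, at a log2 fold change between 1.90 and 1.97, and processed copies of it elsewhere in the genome could take a part of its reads.

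SBSPON, the next tested gene along the chromosome, encodes a secreted matrix protein with somatomedin B and thrombospondin domains. It stood at 3.50, 2.72 and 2.20 CPM in 9-1, 6.17, 5.95 and 6.07 CPM in 9-D, and 8.63, 8.80 and 7.22 CPM in wild type. The order was that of TERF1, again without overlap. The log2 fold change of 9-D over 9-1 was 1.12 (SE 0.175, adjusted p = 0.000353), and against wild type it was -1.55 in 9-1 and -0.43 in 9-D (adjusted p = 0.0308). On the other side of TERF1, the potassium channel gene KCNB2 was near the limit of detection, at means of 0.386 CPM in 9-1, 0.871 in 9-D and 1.23 in wild type. KCNB2 did not pass between the clones (log2 fold change 1.08, SE 0.468, adjusted p = 0.66) and was lower in 9-1 than in wild type (-1.64, adjusted p = 0.00443).

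Genes farther away did not pass between the clones. RPL7, the ribosomal protein gene after SBSPON, differed by 0.09 (log2, SE 0.0538) between the clones, and the retinol dehydrogenase gene RDH10 one of 0.24 (SE 0.123, adjusted p = 0.758). RDH10 was lower than wild type in both clones, at -0.85 in 9-1 and -0.61 in 9-D. Of the 12 tested genes within 6 places of TERF1, 1 passed between the clones (SBSPON) and their median log2 fold change was 0.04.

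**Figure D2:**
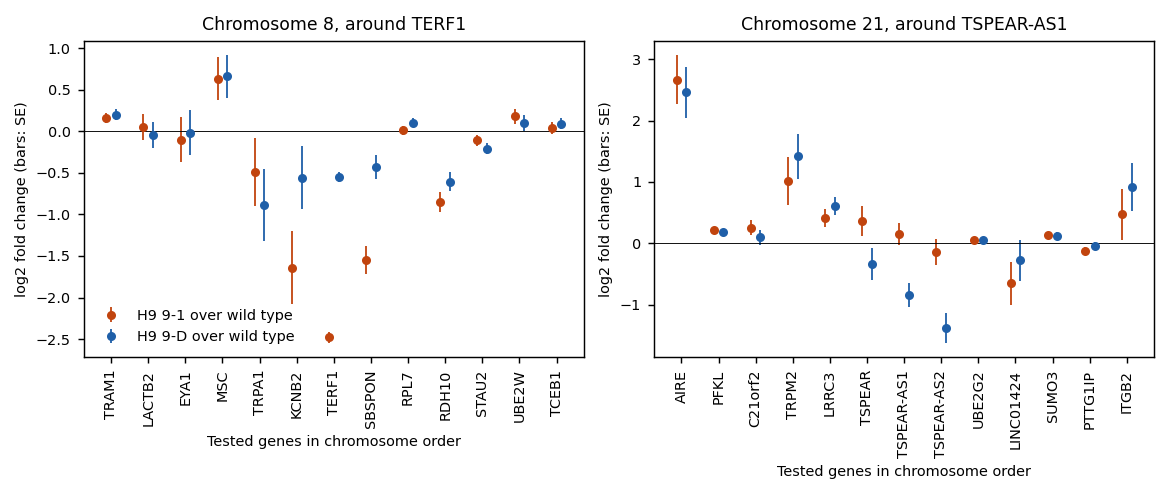
Log2 fold change of 9-1 (orange) and 9-D (blue) over wild type, with SE bars, for tested genes in chromosome order around TERF1 (left) and TSPEAR-AS1 (right). On the left KCNB2, TERF1 and SBSPON are lower in 9-1 than in 9-D; on the right TSPEAR, TSPEAR-AS1 and TSPEAR-AS2 are lower in 9-D than in 9-1.

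In several other genes 9-1 passed against wild type and 9-D did not. MAGI2 encodes a membrane-associated guanylate kinase that scaffolds cell junctions and synapses. Its levels were 13.8, 12.8 and 13.5 CPM in 9-1, 25.8, 27.2 and 23.1 CPM in 9-D, and 25.04, 22.6 and 24.4 CPM in wild type. All 3 libraries of 9-1 lay below the other 6, and 9-D overlapped wild type. Between the clones the log2 fold change was 0.93 (adjusted p = 4.18e-08, SE 0.0936), where 9-1 differed from wild type by -0.85 and 9-D by 0.08 (adjusted p = 0.572).

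NKAIN2 encodes a membrane protein that interacts with a subunit of the sodium pump. It stood at 2.90, 2.15 and 4.82 CPM in 9-1, at 0.510, 0.709 and 0.364 CPM in 9-D, and at 0.779, 0.346 and 0.926 CPM in wild type. Only 9-1 lay apart, 6.12-fold above 9-D (log2 fold change of 9-D over 9-1 -2.61, SE 0.356, adjusted p = 2.55e-05). These levels rest on few reads, with 152 counts over the 9-1 libraries, 25 over 9-D and 32 over wild type. NKAIN2 kept its call in every alternative.

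The promoters of TSPEAR-AS1 and TSPEAR-AS2, an adjacent pair described next, and of MAGI2, in which 9-1 alone lay apart, are printed from the RefSeq table on GRCh38.p14, from 250 bases before the start to 50 after it, with CG dinucleotides in capitals.
TSPEAR-AS1: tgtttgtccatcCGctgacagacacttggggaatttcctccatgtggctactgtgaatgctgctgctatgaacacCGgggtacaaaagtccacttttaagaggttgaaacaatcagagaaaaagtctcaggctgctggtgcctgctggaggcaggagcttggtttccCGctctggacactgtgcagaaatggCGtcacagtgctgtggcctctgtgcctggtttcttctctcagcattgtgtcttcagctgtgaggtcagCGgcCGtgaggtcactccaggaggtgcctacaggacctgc
TSPEAR-AS2: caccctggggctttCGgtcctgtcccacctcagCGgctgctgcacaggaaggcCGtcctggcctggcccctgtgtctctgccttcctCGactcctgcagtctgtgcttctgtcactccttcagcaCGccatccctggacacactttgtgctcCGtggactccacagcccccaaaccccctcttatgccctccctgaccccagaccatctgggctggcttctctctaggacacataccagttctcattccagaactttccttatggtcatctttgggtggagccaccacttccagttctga
MAGI2: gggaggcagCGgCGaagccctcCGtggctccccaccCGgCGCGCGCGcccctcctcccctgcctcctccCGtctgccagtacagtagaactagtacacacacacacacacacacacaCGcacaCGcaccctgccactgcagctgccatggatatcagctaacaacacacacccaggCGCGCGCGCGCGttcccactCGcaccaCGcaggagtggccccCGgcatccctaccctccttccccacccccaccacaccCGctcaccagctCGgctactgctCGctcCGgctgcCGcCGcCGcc
These windows are chr21:44505794-44506093 on the plus strand for TSPEAR-AS1, chr21:44516965-44517264 on the plus strand for TSPEAR-AS2, and chr7:79453618-79453917 on the minus strand for MAGI2. The TSPEAR-AS1 and TSPEAR-AS2 windows hold 6 CG dinucleotides each and the MAGI2 window 27. The letters GGAGGAGG, searched on both strands, occur 2 times in the MAGI2 window and in neither of the others. In NKAIN2 and APELA 9-1 alone lay apart too, and their windows hold these letters 0 and 2 times. Of the 11401 tested autosomal genes with a promoter in the table, 13.4% hold them. A link of these letters to the differences between the clones was not tested. Only 26 of the 36 genes that differ between the clones have a promoter in the table, under 80% of them, so a comparison of promoter content is void and none is given.

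TSPEAR-AS1 and TSPEAR-AS2 are non-coding transcripts antisense to TSPEAR on chromosome 21, and here 9-D was the clone away from wild type. TSPEAR-AS2 stood at 3.35, 2.96 and 3.33 CPM in 9-1, 1.42, 0.922 and 1.64 CPM in 9-D, and 3.83, 3.53 and 3.21 CPM in wild type. Every 9-D library lay below the other 6. The log2 fold change was -1.25 between the clones (SE 0.242, adjusted p = 0.00773), -1.38 for 9-D over wild type and -0.14 for 9-1 over wild type (adjusted p = 0.673). Without 9-D replicate 2 the call between the clones was lost (adjusted p = 0.104).

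TSPEAR-AS1 followed the same pattern, at 6.33, 5.64 and 6.53 CPM in 9-1, 2.66, 3.12 and 3.46 CPM in 9-D, and 6.55, 6.23 and 3.83 CPM in wild type. Its log2 fold change between the clones was -0.99 (SE 0.19, adjusted p = 0.00631). TSPEAR itself had a value of the same sign that did not pass (-0.71, SE 0.25, adjusted p = 0.529). TSPEAR-AS1 carries the name TSPEAR-AS2 among its older names in the annotation, and the NEBNext Ultra II RNA kit named in the labels does not mark strand, so reads of the host gene and of the pair cannot be told apart where they overlap.

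TCHH, which encodes trichohyalin of the hair follicle, was higher in 9-D. It stood at 1.27, 0.765 and 0.851 CPM in 9-1, 2.83, 2.48 and 2.61 CPM in 9-D, and 0.779, 0.0693 and 0.494 CPM in wild type. The 9-D libraries lay above all others, and 9-1 overlapped wild type. The log2 fold change was 1.49 between the clones (SE 0.319, adjusted p = 0.0194). That call was lost without 9-1 replicate 2 or 3 or without any 1 library of 9-D, at adjusted p of 0.273, 0.116, 0.062, 0.0772 and 0.101 in that order, and with DESeq2.

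The remaining genes past 2-fold were LOC101928254, ASPG and HBD. LOC101928254, an uncharacterised non-coding gene on chromosome 7, stood at 5.28, 5.69 and 7.09 CPM in 9-1, 2.55, 1.63 and 2.07 CPM in 9-D, and 0.649, 0.623 and 0.432 CPM in wild type. The 3 groups did not overlap, both clones were above wild type, and 9-1 was farther from it (log2 fold change of 9-D over 9-1 -1.51, SE 0.206, adjusted p = 2.55e-05). It kept its call in every alternative.

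ASPG, a homologue of asparaginase on chromosome 14, ran the other way, with 4 counts over the 9-1 libraries, 37 over 9-D and 74 over wild type. Per library total, 9-D held 9.22 times the reads of 9-1, with a 95% counting interval of 3.31 to 35.6. The adjusted p was 0.0145, and it was 0.0913 without 9-1 replicate 1, 0.289 without 9-1 replicate 2 and 0.186 without 9-D replicate 3. With DESeq2 the call was lost as well. The mean of ASPG was under 1 CPM in both clones, and it was named after its values were seen.

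HBD, the delta-globin gene, passed through 1 library. It stood at 0.223, 18.4 and 0.993 CPM in 9-1, 0.680, 1.98 and 0.607 CPM in 9-D, and 1.43, 2.98 and 1.11 CPM in wild type. Replicate 2 of 9-1 held 385 of the 402 counts of its clone, and without it the log2 fold change turned from -2.79 (adjusted p = 0.0479) to 0.77 (adjusted p = 0.921). The adjacent and near-identical beta-globin gene HBB, with which HBD could share reads, had a log2 fold change of -2.55 that did not pass (adjusted p = 0.0703). The HBD call was also lost without 9-D replicate 1, 2 or 3 (0.107, 0.104 and 0.484) and without wild-type replicate 1 (0.0544). With DESeq2, RLE scaling, the stricter filter on low counts or the clone libraries alone it was lost too.

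The other 28 autosomal genes differed by less than 2-fold, and those named here were named after their values were seen. Those farther from wild type in 9-1 included genes that both clones held away from wild type in the same direction. SERPINB9, the inhibitor of granzyme B, stood at 364, 376 and 353 CPM in 9-1, 289, 270 and 262 CPM in 9-D, and 78.8, 73.2 and 73.3 CPM in wild type (log2 fold change of 9-D over 9-1 -0.41, SE 0.0561, adjusted p = 2.55e-05). VGF, a neuropeptide precursor, stood at 88.6, 95.5 and 96.6 CPM in 9-1, 71.4, 73.7 and 72.7 CPM in 9-D, and 40.2, 36.01 and 37.2 CPM in wild type (-0.37, SE 0.0627, adjusted p = 0.00121). For both genes the 3 groups did not overlap, and 9-1 was the more extreme clone.

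Of the genes that passed against wild type in 9-1 and not in 9-D, APELA encodes a secreted ligand of the apelin receptor that human embryonic stem cells make. It stood at 69.8, 69.9 and 63.4 CPM in 9-1, 51.7, 53.7 and 46.3 CPM in 9-D, and 54.2, 52.1 and 45.9 CPM in wild type. Only 9-1 lay apart (log2 fold change of 9-D over 9-1 -0.42, SE 0.0722, adjusted p = 0.00121). PDE12, a phosphodiesterase of mitochondria, had means of 28.3 ± 1.37 CPM in 9-1, 19.1 ± 1.77 in 9-D and 22.6 ± 2.41 in wild type (n = 3 each; -0.57, adjusted p = 0.000603). In 9-D its value against wild type was -0.24, with a 95% interval of -0.43 to -0.04 that leaves out 0, and did not pass after adjustment (adjusted p = 0.0665). The genes ID4, VGLL3, CRABP1 and PLPPR3 likewise passed against wild type in 9-1 and not in 9-D, as did ZNF283. The last of these had a wild-type range of 3.31 to 3.89 CPM, with every 9-1 library above it (4.75 to 5.43) and every 9-D library below it (2.19 to 3.12).

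DLL3 and RBPJ were higher in 9-D. DLL3, a Notch ligand that acts as an inhibitor within the cell, stood at 16.9, 21.98 and 17.9 CPM in 9-1, 24.9, 23.2 and 31.4 CPM in 9-D and 22.4, 23.5 and 21.98 CPM in wild type. The wild-type mean lay between those of the clones, and its range met that of each (0.47, SE 0.103, adjusted p = 0.0234 on the log2 scale). RBPJ, the DNA-binding factor of Notch signalling, stood at 202, 209 and 192 CPM in 9-1, 264, 247 and 216 CPM in 9-D and 156, 169 and 171 CPM in wild type. Here both clones lay above wild type, and 9-D was higher than 9-1 (0.27, SE 0.0628, adjusted p = 0.0438).

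Clones on either side of wild type were seen in PCDHA12, a protocadherin of the alpha cluster, at 11.6, 14.6 and 13.7 CPM in 9-1, 20.6, 18.3 and 18.6 CPM in 9-D and 14.9, 17.2 and 15.6 CPM in wild type. All 9-1 libraries lay below wild type and all 9-D libraries above it (0.52, SE 0.102, adjusted p = 0.0091). Against wild type PCDHA12 passed in 9-D and not in 9-1. CRABP1, which binds retinoic acid, stood at 77.8, 64.3 and 69.95 CPM in 9-1, 77.99, 89.1 and 95.3 CPM in 9-D and 89.8, 89.7 and 83.4 CPM in wild type, with 9-1 alone below wild type (0.31, SE 0.072, adjusted p = 0.0428). PLPPR3, a membrane protein of growing neurites, stood at 47.6, 50.7 and 50.2 CPM in 9-1, 56.2, 61.3 and 69.4 CPM in 9-D and 73.2, 68.4 and 62.8 CPM in wild type, and 9-1 was again the lower clone (0.33, SE 0.0741, adjusted p = 0.0313).

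The inhibitor of differentiation ID4 stood at 13.1, 14.8 and 14.9 CPM in 9-1, 10.03, 10.1 and 10.9 CPM in 9-D and 10.9, 10.7 and 10.99 CPM in wild type, with 9-1 alone above wild type (-0.47, SE 0.107, adjusted p = 0.041). VGLL3, a cofactor of TEAD factors, stood at 49.2, 46.2 and 38.2 CPM in 9-1, 36.9, 32.8 and 31.04 CPM in 9-D and 38.8, 34 and 38.03 CPM in wild type, and 9-1 was above 9-D but overlapped wild type (-0.41, SE 0.0845, adjusted p = 0.0145). In these genes the difference between the clones was under 1.5-fold. After leaving out 1 library, adjusted p reached 0.348 for RBPJ (9-1 replicate 3), 0.426 for CRABP1, 0.293 for ID4 (both 9-1 replicate 2), 0.404 for PLPPR3 (9-D replicate 3) and 0.221 for VGLL3 (9-1 replicate 1).

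Genes farther from wild type in 9-D included DPEP3, a membrane dipeptidase, at 13.2, 11.04 and 10.5 CPM in 9-1, 16.5, 20.5 and 19.2 CPM in 9-D, and 0.714, 1.66 and 1.73 CPM in wild type. Both clones stood well above wild type, and 9-D was higher than 9-1 without overlap (log2 fold change 0.70, SE 0.123, adjusted p = 0.00199). DPP6, an auxiliary subunit of potassium channels, stood at 10.8, 11.9 and 11.6 CPM in 9-1, 15.8, 15.3 and 15.5 CPM in 9-D and 11.48, 11.98 and 12.04 CPM in wild type, so that 9-D alone lay apart (0.44, adjusted p = 0.0428, lost without any 1 library of either clone at adjusted p up to 0.242 and with DESeq2).

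**Figure D3:**
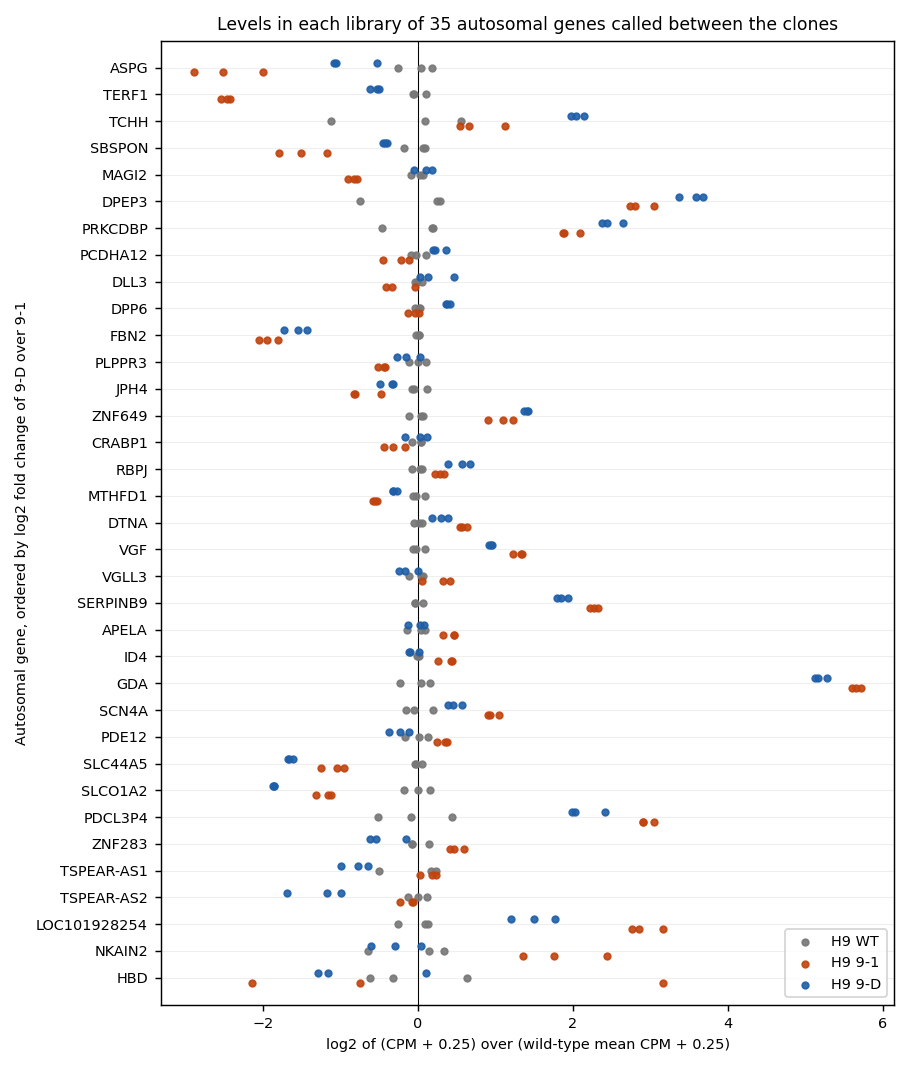
Log2 of (CPM + 0.25) over the wild-type mean with the same addition (horizontal axis), for 35 of the 36 autosomal genes that passed between the clones (vertical axis, ordered by log2 fold change of 9-D over 9-1); each point is 1 library of 9-1 (orange), 9-D (blue) or wild type (grey). TERF1 is low in 9-1, GDA is far above wild type in both clones, and HBD has 1 library of 9-1 far above the other 8.

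Sorted by side, 9-1 was the clone that stood farther from wild type in 24 of the 36 genes and 9-D in 12. The former were 10 genes higher in 9-D than in 9-1 and 14 lower, the latter 7 and 5. Against wild type, 10 genes passed in 9-1 and not in 9-D, 6 in 9-D and not in 9-1 (among them TSPEAR-AS1, TSPEAR-AS2, DPP6, PCDHA12 and TCHH), 19 in both in the same direction, and the Notch ligand gene DLL3 in neither. Opposite directions did not occur. With a 2-fold minimum against wild type the counts were 5 in 9-1 alone, 2 in 9-D alone, 11 in both and 18 in neither. The wild-type mean lay between the means of the clones in 12 genes. Of all autosomal genes, 26.4% passed against wild type in 9-1 and 23.4% in 9-D. Which clone lay farther from wild type was not counted over all genes. The 24 include HBD, which rests on replicate 2 of 9-1, and DLL3, at -0.24 in 9-1 and 0.23 in 9-D. These counts describe genes chosen for a difference between the clones, and both clones are set against the same 3 wild-type libraries.

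The 19 genes that passed in both clones differ between them in degree. GDA, guanine deaminase, was listed at 0.130 to 0.247 CPM in wild type, at 21.4 to 23.2 CPM in 9-1 and at 15.2 to 17.1 CPM in 9-D (log2 fold change of 9-D over 9-1 -0.47, adjusted p = 0.0126). FBN2, the matrix protein fibrillin 2, was at 26.01% of the wild-type mean in 9-1 and 33.6% in 9-D. SLCO1A2, an organic anion transporter, and SLC44A5, a choline transporter-like gene, were lower than wild type in both clones and lower still in 9-D, at 26.3% and 30.6% of wild type against 42.6% and 46.5% in 9-1. PRKCDBP, a protein of caveolae, and the zinc finger gene ZNF649 were higher than wild type in both and more so in 9-D, at 599% and 265% of wild type against 409% and 213%. MTHFD1, an enzyme of folate metabolism, was at 68.1% in 9-1 and 81.04% in 9-D. The rest of this group were PDCL3P4, a pseudogene that can share reads with its parent, and SCN4A, DTNA, RBPJ and JPH4, beside TERF1, SBSPON, LOC101928254, ASPG, SERPINB9, VGF and DPEP3 given above.

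Several of these genes show the steps from wild type to the clones. FBN2 stood at 27.5, 32.6 and 29.7 CPM in 9-1, 39.1, 42.3 and 34.4 CPM in 9-D and 113, 116 and 116 CPM in wild type, so that both clones were far below wild type and 9-1 lowest. SLCO1A2 stood at 5.88, 6.59 and 6.81 CPM in 9-1, 3.96, 3.97 and 3.95 CPM in 9-D and 15.1, 16.8 and 13.3 CPM in wild type, with 9-D lowest. PRKCDBP stood at 13.02, 12.8 and 15.04 CPM in 9-1, 18.4, 22.2 and 19.3 CPM in 9-D and 3.83, 3.81 and 2.35 CPM in wild type, with 9-D highest. In each the 3 groups did not overlap.

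SCN4A, the sodium channel of skeletal muscle, stood at 21.3, 19.5 and 19.2 CPM in 9-1, 14.05, 13.4 and 15.2 CPM in 9-D and 11.6, 9.76 and 9.07 CPM in wild type (-0.49, SE 0.101, adjusted p = 0.0145). DTNA, alpha-dystrobrevin, stood at 67.6, 64.7 and 63.6 CPM in 9-1, 57.03, 53.8 and 49.6 CPM in 9-D and 45.1, 42.04 and 43.9 CPM in wild type (-0.29, SE 0.0673, adjusted p = 0.0483). In both, 9-1 was highest, 9-D next and wild type lowest, without overlap. JPH4, a junctophilin that holds the plasma membrane near the endoplasmic reticulum, stood at 84.8, 66.9 and 66.7 CPM in 9-1, 83.99, 94.6 and 93.8 CPM in 9-D and 128, 115 and 112 CPM in wild type (0.32, SE 0.0753, adjusted p = 0.0453). The JPH4 libraries of the clones overlapped. After leaving out 1 library, adjusted p reached 0.154 for SCN4A (9-D replicate 2), 0.427 for DTNA (9-D replicate 3), 0.401 for JPH4 (9-1 replicate 2) and 0.154 for PDCL3P4 (9-D replicate 2).

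The libraries of the 2 clones did not overlap in 34 of the 36 genes, the exceptions being HBD and JPH4. Of all autosomal genes 11.6% did not overlap. The 36 were chosen by a test on these same libraries, so the lack of overlap follows from the choice and is no further support. Leaving out 1 library at a time, 11 of the 36 kept their call each time: TERF1, SBSPON, MAGI2, DPEP3, NKAIN2, LOC101928254, TSPEAR-AS1, PDE12, APELA, SERPINB9 and VGF. Without 9-1 replicate 1, 2 or 3, 20, 16 and 20 of the 36 passed, without 9-D replicate 1, 2 or 3, 25, 16 and 20, and without wild-type replicate 1, 2 or 3, 33, 36 and 33. With DESeq2, 28 of the 36 kept their call, and HBD, PDCL3P4, SLC44A5, ID4, JPH4, DPP6, TCHH and ASPG lost it. With the clone libraries alone, 27 of the 35 genes with a value kept it. There HBD, SLC44A5, ID4, DTNA, RBPJ, CRABP1, FBN2 and DPP6 lost it. In a test against a 1.5-fold difference (glmTreat) only 3 of the 36 passed, TERF1, NKAIN2 and LOC101928254. Among genes named above, the highest adjusted p after leaving out 1 library was 0.112 for ZNF283 (9-D replicate 3), 0.115 for GDA (9-1 replicate 1), 0.333 for FBN2 and 0.215 for MTHFD1 (9-D replicate 2), 0.15 for SLCO1A2 and 0.368 for SLC44A5 (9-1 replicate 2), 0.186 for PRKCDBP (9-D replicate 2), 0.441 for ZNF649 (9-1 replicate 3), 0.48 for DLL3 (9-D replicate 3) and 0.131 for PCDHA12 (9-1 replicate 1).

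Neighbouring genes moved together in few places. Among tested autosomal genes in chromosome order, TERF1 and SBSPON were the 1 adjacent pair past 2-fold in both members. With no fold minimum the pair TSPEAR-AS1 and TSPEAR-AS2 joined it, also in the same direction. The 36 genes have 72 immediate neighbours, in which these 2 pairs count from both ends. Of them 4 passed between the clones (5.56%, beside 0.247% of all autosomal genes), 48 had the same sign as their gene, and 11 (15.3%) had an unadjusted p under 0.05 with the same sign. Of all autosomal genes 3.81% were higher and 2.71% lower in 9-D at that level. Over the 65 neighbours that do not overlap their gene, 9 (13.8%) had an unadjusted p under 0.05 with the same sign. Both the 11 and the 9 include the 4 members of the 2 pairs, which were themselves chosen for a difference between the clones. That choice raises both shares, so they are no test against all autosomal genes. Both counts also include HBB, whose neighbour HBD rests on replicate 2 of 9-1. The share with the same sign was not counted over all adjacent pairs, so the 48 have no reference share.

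Besides KCNB2, TSPEAR, HBB and the 2 pairs, the neighbours at that level were SERPINB1 beside SERPINB9 (log2 fold change -0.23), NOL4 beside DTNA (-0.78), the antisense gene ZNF649-AS1 beside ZNF649 (0.83) and S100A6 beside TCHH (1.12). Each had the sign of its gene, and none passed after adjustment in edgeR (adjusted p of 0.567 to 0.66). IREB2 beside CRABP1 (-0.13) and PCDHA11 beside PCDHA12 (-0.20) had the opposite sign. Within 6 places of MAGI2, NKAIN2, ASPG, LOC101928254, PDE12 or GDA, no neighbour of 12 passed. Of 14555 adjacent pairs in all, 59 had both members at an unadjusted p under 0.05 with the same sign and 27 with opposite signs.

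No chromosome, and no block of adjacent genes that was counted, shifted far by its median. The median log2 fold change of 9-D over 9-1 ranged from -0.019 to 0.024 over the autosomes, the latter on chromosome 19. In 291 blocks of up to 50 adjacent tested genes the medians ran from -0.07 to 0.078, and no block lay beyond 0.1. The last genes of some chromosomes, too few for a block, were left out, and a block median can miss a shorter shift. Chromosome 8, with TERF1, had a median of -0.005 over 531 genes.

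The gene lists held few differences. Over 32 lists of pathway genes, lineage markers and gene families, 11 of 1120 distinct autosomal members passed (0.982%, beside 0.247% of all autosomal genes), and list medians ran from -0.06 to 0.12, beside -0.003 for all genes. The lists were chosen with earlier results of these data known, so no conclusion is drawn from the higher share. Of 30 core pluripotency genes, TERF1 was the 1 that passed, and the median log2 fold change of 9-D over 9-1 was 0.02. NANOG stood at 60.3 ± 1.24 CPM in 9-1 and 60.6 ± 4.87 CPM in 9-D (n = 3 each), with an interval of the log2 fold change from -0.13 to 0.15. The intervals were -0.05 to 0.18 for POU5F1, -0.09 to 0.14 for SOX2, -0.16 to 0.05 for LIN28A and -0.12 to 0.10 for DNMT3B, the de novo DNA methyltransferase. TDGF1, the NODAL co-receptor, had no overlap between the clones, at 935 ± 31.1 CPM in 9-1 and 1039 ± 23.6 CPM in 9-D, and did not pass (0.15, adjusted p = 0.512).

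In the list of genes variable among pluripotent clones, 3 of 42 passed (beside 0.247% of all autosomal genes), DPP6 and DPEP3 higher in 9-D and GDA lower. This list too was chosen with earlier results known, so its count is no test of whether such genes differ more often. Among the other lists with a call, CRABP1 (0.31) was 1 of 15 neuroectoderm genes, and ID4 (-0.47), an inhibitor of basic helix-loop-helix factors, 1 of 14 genes of the BMP response. VGF was 1 of 16 genes of neuropeptides and secretory granules. PCDHA12 (0.52) was 1 of 53 clustered protocadherins, whose shared exons let members share reads. Of 523 zinc finger genes, ZNF649 (0.32) was higher and ZNF283 (-0.97) lower in 9-D. The other 24 lists, which include naive and primed pluripotency, p53, stress, WNT, NODAL, FGF, Polycomb, imprinted and glycolysis genes, had no call by edgeR.

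**Figure D4:**
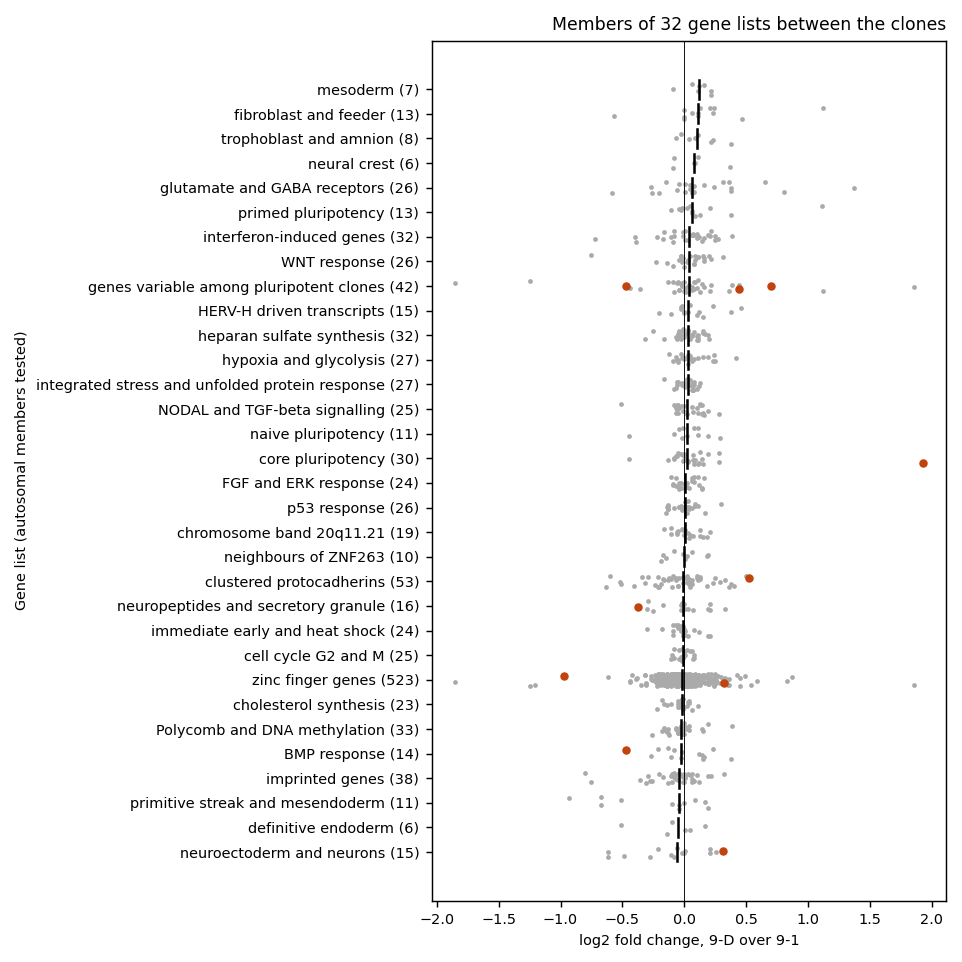
Log2 fold change of 9-D over 9-1 (horizontal axis) of each tested autosomal member of the 32 gene lists (vertical axis, number tested in brackets), with 1 gene not shown; grey points did not pass, orange points passed an adjusted p of 0.05 and the black bar is the list median. Medians lie between -0.06 and 0.12, and TERF1 is the orange point at 1.93.

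Markers of other cells that a culture could hold did not separate the clones by their summed levels. Genes of the primitive streak and mesendoderm summed to 52.99 to 111.8 CPM in 9-1, 53.1 to 94.9 in 9-D and 36.8 to 47.9 in wild type, over 15 genes. Neural crest genes summed to 70.5 to 75.4, 65.8 to 79.7 and 51.3 to 52.5 CPM over 12 genes, and definitive endoderm genes to 19.04 to 37.96, 18.2 to 29.9 and 17.4 to 20.2 CPM over 11. In these 3 lists the clones overlapped each other. The 16 fibroblast and feeder genes were the exception, at 1283 to 1330 CPM in 9-1 and 1351 to 1476 in 9-D, with wild type at 1396 to 1443. The 17 trophoblast and amnion genes summed to 551 to 589 CPM in 9-1, 573 to 628 in 9-D and 531 to 554 in wild type. Of that list only ELF5 and XAGE2 had no read in any of the 9 libraries. In bulk RNA, fewer cells of a type and less RNA per cell cannot be told apart, and the part of these markers in the differences was not tested.

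H1, another line of human embryonic stem cells, gave values that share no library with H9. Its homozygous ZNF263 clone 1-10 was compared with H1 wild type, 3 libraries each. Of the 36 genes 31 were tested there and 13 passed (41.9%), 7 higher and 6 lower in 1-10, beside 12.3% of all genes tested. All of the 36 but DLL3 also passed against H9 wild type in at least 1 clone. The H1 share of genes that pass in H9 was not counted, so the 12.3% is not a share of like genes. Nor do the H1 values compare the H9 clones with each other. For 9 of the 13 the sign was that of the H9 clone farther from wild type, as for VGF (log2 fold change 1.39), DTNA (0.63), APELA (0.53), FBN2 (-0.77), PLPPR3 (-0.72) and JPH4 (-0.51). GDA (-5.34), DPEP3 (-0.66), TSPEAR-AS1 (0.90) and TERF1 (0.19, adjusted p = 0.00769) had the opposite sign. SBSPON (-0.06, adjusted p = 0.87) and MAGI2 (-0.10, adjusted p = 0.509) did not pass in H1. The count of genes past the threshold in H1 was 949 without H1 wild-type replicate 3 and 1102 without 1-10 replicate 1, against 1827 with all libraries.

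The authors' deposited table of both H9 clones pooled against wild type calls 18 of the 36 genes. Of the 4004 tested autosomal genes that this table calls, 18 (0.45%) differed between the clones, and of its 389 calls of at least 2-fold 12 did (3.08%). Among the 10573 genes that the authors' deposited table does not call, 18 (0.17%) differed between the clones. Of all autosomal genes tested 0.247% did. The pooled comparison uses the same clone libraries, so its calls are not independent of a difference between the clones, and no conclusion is drawn from these shares.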

How the data were processed

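The authors' deposited count table for H9 holds whole read counts per gene symbol, which the submitters' processing notes credit to STAR, hg19 and featureCounts, with no version or option. The authors' deposited comparison tables hold log2 fold changes and p-values adjusted by DESeq2, per the file headers. In the H1 count table, a column headed only by the line and a number was read as that wild-type replicate.

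Counts of the 9 H9 libraries were fitted in 1 model of 3 groups with edgeR 4.0.16 (R 4.3.3; TMM scaling, filterByExpr, quasi-likelihood F test, Benjamini-Hochberg adjustment over all genes tested, threshold 0.05), which was tested on simulated data. SE is the absolute log2 fold change over the square root of F, and intervals are 95% intervals. Levels are TMM-scaled CPM, so they are not comparable between genes of unequal length. Of 27130 symbols 25687 matched RefSeq GRCh38.p14 (24340 by symbol, 1347 by an older name), which gave names, chromosomes and gene order only. Promoters came from the same annotation.

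Named by rule were ZNF263, 5 stem cell genes, and genes past 2-fold without overlap and with at least 1 CPM in the higher clone (up to 12 rises and 12 falls, and all in runs of adjacent genes), and up to 4 genes per list. The members and gene lists were chosen with earlier results of these data known. Deviations of same-numbered libraries from their group means correlated by -0.0308 to 0.0633, so the numbers were not taken as pairs. Chi-square per gene between replicates was 2.29 to 5.94, above counting error. Alternatives were DESeq2 1.42.0, RLE scaling, other filters, the clone libraries alone, glmTreat against 1.5-fold, and leaving out each library. Of the 36 autosomal genes 1 stays in the counts and is not reported here by name.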

Additional observations from a re-analysis of the deposited data

Results flagged for a closer look

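Genes past 2-fold between clones of equal labelled genotype are listed because their departures from wild type differ between the clones, by the test of 9-D against 9-1. The log2 fold changes of 9-D over 9-1 were 1.93 for TERF1, 1.12 for SBSPON, 1.49 for TCHH and 3.09 for ASPG, and -2.61 for NKAIN2, -1.51 for LOC101928254, -1.25 for TSPEAR-AS2 and -2.79 for HBD. The HBD value rests on replicate 2 of 9-1. The fitted value of ASPG rests on 4 counts in 9-1, so its size depends on how edgeR treats low counts.

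In ZNF283 (-0.97) and PCDHA12 (0.52) the libraries of the clones lay on opposite sides of wild type. In ZNF283 every 9-1 library was above all wild-type libraries and every 9-D library below them, and in PCDHA12 it was the reverse, with 11.6 to 14.6 CPM in 9-1, 14.9 to 17.2 CPM in wild type and 18.3 to 20.6 CPM in 9-D. Neither gene passed against wild type in both clones. By edgeR, ZNF283 did not pass in 9-D (adjusted p = 0.101) and PCDHA12 did not pass in 9-1 (adjusted p = 0.0831).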

How the results depend on the processing

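The 36 autosomal differences became 29 with DESeq2, 30 with the 6 clone libraries alone and 50 with no filter, and ranged from 17 to 44 when 1 library was left out. Those past 2-fold (8) became 5 with DESeq2, 3 with glmTreat against 1.5-fold, and 5 to 11 when 1 library was left out. With the replicate block the counts were 41 and 10, and this changed no count by over 1.5 times in H9. The genes past 2-fold that passed against wild type in 9-1 alone, in 9-D alone or in both (2, 2 and 4) became 4, 2 and 2 with a 2-fold minimum against wild type, and 3, 2 and 2 with 1 in neither under DESeq2. Leaving out a wild-type library gave 3 to 4, 1 to 2 and 2 to 4. The 1 adjacent pair became 2 with no fold minimum, also with the order of all genes or with DESeq2, the last 2 settings chosen after seeing the data. With no fold minimum and without pairs of like names, also chosen after seeing the data, it stayed 1. The 11 list members became 5 to 14 without 1 library. In H1, 1827 calls became 2926 with the replicate block, 1210 with DESeq2 and 949 to 2100 without 1 library. HBD reversed, to 0.77, without 9-1 replicate 2, which held nearly all reads of its clone, and its log2 fold change without 1 library ran from -3.48 to 0.77. For the other changes the cause was not tested, beyond fewer libraries where 1 was left out. Depth limits genes near 1 CPM, such as ASPG, NKAIN2 and TCHH.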

Other observations

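Outside the autosomes, 9 X-linked genes passed between the clones. CASK, a scaffold kinase of synapses, had a log2 fold change of 9-D over 9-1 of 0.69, from 104 ± 3.64 CPM in 9-1 to 168 ± 13.3 CPM in 9-D, with wild type at 95.01 ± 5.08 CPM (n = 3 each). MTM1, the phosphatase myotubularin, stood at 12.3 ± 0.818, 21.7 ± 1.13 and 10.7 ± 0.519 CPM (0.81), and LOC389906 at 15.4 ± 1.39, 27.5 ± 3.64 and 10.96 ± 0.355 CPM (0.84). SMS, spermine synthase, ANOS1 and IGSF1 were also higher in 9-D (0.33, 0.28 and 0.37), and ADGRG2, TBL1X and GRIPAP1 lower (-0.55, -0.39 and -0.30).

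The mitochondrial ribosomal RNAs RNR1 and RNR2 were higher in 9-D than in 9-1, at log2 fold changes of 0.35 and 0.25 (edgeR adjusted p = 0.0122 and 0.0151). RNR2 stood at 8761 ± 305 CPM in 9-1, 10416 ± 430 CPM in 9-D and 9365 ± 472 CPM in wild type. Both lack the long poly(A) tails of nuclear messenger RNA, and how far the poly(A) selection set these levels was not tested.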
